A study of Mus musculus with 2 samples.

Results

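The genes described here encode the filaments and tracks of the neuronal cytoskeleton and the proteins that work on them. They are neurofilament proteins and the intermediate filaments of progenitors, tubulins, microtubule-associated proteins, the doublecortin family, stathmins, growth cone membrane proteins and kinesin motors. The 39 members form a list of genes grouped by function, drawn up with earlier results of these data known, and were matched by gene symbol to the deposited read counts, and all 39 were among the 19720 genes listed. A gene is called measured here if its reads in both libraries add up to 20 or more, which held for 38 members and for 14366 genes in all. The exception was Prph.

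RNA was sequenced from embryonic telencephalon of C57BL/6 mice in 2 genotypes, with 1 library each. The control is labelled H2AZfl/fl, that is, mice whose alleles of the histone variant gene H2A.Z are floxed, although its title reads WT_E16. The conditional knockout, labelled H2AZcKO and titled H2AfZKO_E16, is called cKO below. The age is uncertain, since the titles and the design text say E16 and the stage field says E12. Likewise the tissue is labelled telencephalic, but the RNA protocol speaks of the dissected cortex. The sources used here do not give the Cre line, the deleted exons, the number of embryos per library or any pooling. The libraries held 8474545 reads in genes for the control and 9028523 for cKO. The targeted gene, H2afz, had 1152 reads in control and 535 in cKO (log2 cKO over control -1.16, interval -1.31 to -1.01). The design text names triplicates, but the table analysed here has 1 column of counts per genotype. With 1 library a group there is no spread between samples, no test and no p-value, and every difference below is between these 2 libraries.

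Ratios are log2 of cKO over control after scaling by the trimmed mean of M values (TMM), so positive values are higher in the cKO library. Intervals in parentheses are exact 95% Clopper-Pearson intervals from how each gene's reads divide between the libraries, and they cover counting error only. A gene is called apart at a ratio of at least 1.5-fold, and beyond counting error when its interval leaves out 0 on the log2 scale. Levels are compared between genes only as RPKM, reads scaled to exon length and library size. In bulk tissue, fewer cells of a type and less RNA per cell cannot be told apart.

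Neurons build axons and dendrites on bundles of microtubules, hollow polymers of alpha and beta tubulin that are stabilised by microtubule-associated proteins and serve as rails for kinesin motors. Newborn neurons make a dynamic set of these proteins (doublecortin, stathmins, Map1b, Gap43), and maturing neurons add neurofilaments, tau, Map2, Map1a and the axonal kinesin Kif5a. Progenitors rely instead on the intermediate filament proteins nestin and vimentin.

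Most members were slightly higher in the cKO library, and Nefl alone was apart. Of the 38 measured members, 32 had a ratio above 0, and the median log2 ratio was 0.15. Among all measured genes 50.5% were above 0 and the median was 0.0021. One member was at least 1.5-fold higher and 0 were at least 1.5-fold lower, beside 3.52% and 5.43% of all measured genes. At a lower limit of 25% between the libraries, 5 members were higher (Nefl, Ina, Nefm, Map6 and Gap43) and 2 lower (Tubb6 and Tuba1c), beside 8.67% and 12.2% of all measured genes. Beyond counting error, 26 members were higher and 1, Vim, was lower, beside 12.5% and 9.3% of all measured genes. The members together took 2.83% (2.81 to 2.84) of the control library's reads and 3.06% (3.05 to 3.07) of those of cKO (Wilson intervals).

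Depth moves with these counts and is given beside them. Of the members, 32 had at least 1000 reads, 30 of these were above 0 and 25 were higher beyond counting error, with 1, Vim, lower. Of the 4586 genes of that depth in the table, 63.8% were above 0 and 24.5% were higher and 7.68% lower beyond counting error. Their median was 0.037, whereas that of the 32 members was 0.15, a value above 85.1% of genes of that depth. For 573 genes with at least 5000 reads the median was 0.065, 74.9% were above 0 and 49.2% were higher beyond counting error. Of the 22 members among them, 21 were above 0 and 19 higher beyond counting error, with a median of 0.16. The plot of ratio against depth shows most well-counted members in the upper part of the genes of like depth.

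**Figure D1:**
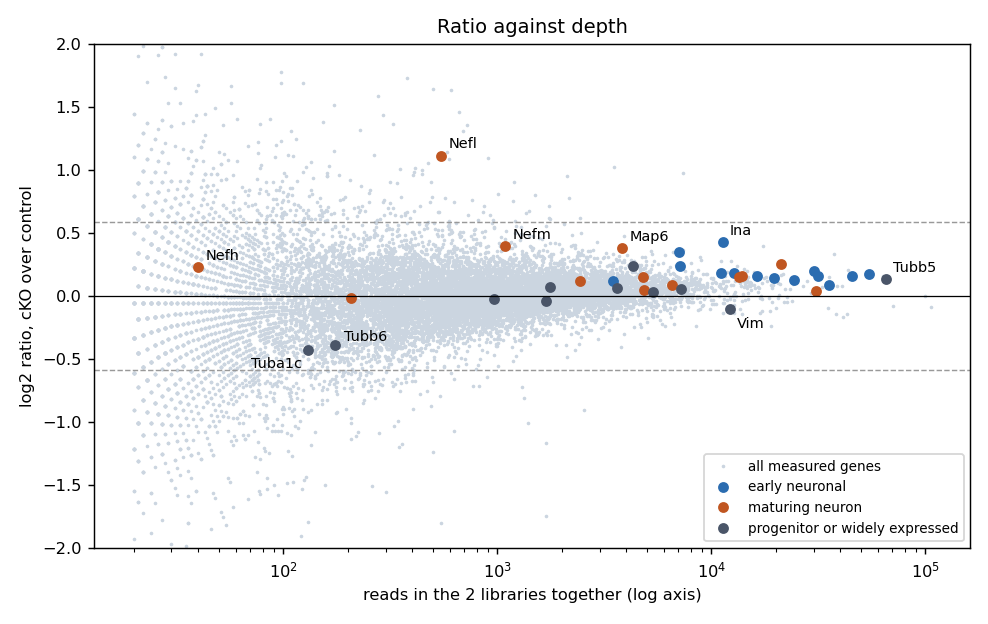
Log2 ratio of cKO over control (vertical axis) against the reads of a gene in both libraries together (horizontal log axis). Grey points are all 14366 measured genes, of which 109 lie outside the vertical range, coloured points are the 38 measured members by stage, and dashed lines mark 1.5-fold. Nefl stands at 1.11 and the deeply counted members lie between -0.100 for Vim and 0.43 for Ina.

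Nefl, Ina and Nefm had the highest ratios of the members, whereas the other neurofilament genes, Nefh and Prph, had too few reads to tell. Neurofilaments are heteropolymers of the light, medium and heavy subunits (Nefl, Nefm, Nefh) with alpha-internexin (Ina) or peripherin (Prph), and they set the calibre of axons. Nefl, the light subunit on which the others assemble, had 168 reads in control and 379 in cKO. That is a log2 ratio of 1.11 (0.85 to 1.39), or 2.17-fold, and it was higher than the ratio of 99.3% of measured genes. Nefm, the medium subunit, had 460 and 630 reads, 0.40 (0.22 to 0.57). Ina, the neurofilament protein that appears first in developing neurons, had 4719 and 6589 reads, 0.43 (0.37 to 0.48). Nefm and Ina were thus both higher, but under the 1.5-fold limit. Nefh, the heavy subunit of mature large axons, had 18 and 22 reads, and Prph, the filament of peripheral and brainstem neurons, had 10 and 6 reads. Neither showed a difference detectable with so few reads, at log2 ratios of 0.23 (-0.73 to 1.22) and -0.74 (-2.54 to 0.81).

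Ratios between members within a library do not depend on the scaling, and 35 such pairs, chosen with results known, were computed. Nefl gained on Nefm by 0.72 (0.40 to 1.04) on the log2 scale and on Ina by 0.69 (0.42 to 0.97). The proportion of Nefm to Ina was level, at -0.028 (-0.21 to 0.16). Per length, Ina was by far the most abundant of the 5 genes, with an RPKM of 169.8 and 228 in control and cKO, against 5.79 and 12.6 for Nefl and 9.28 and 12.2 for Nefm. Ina accounted for 91.3% in the control library and 89.9% in the cKO library of the summed RPKM of these genes, and Nefl for 3.12% in the control library and 4.95% in the cKO library. Nefl was therefore the less abundant of Nefl and Nefm in the control library, while in the cKO library their levels lay close together.

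The gene Nefl is at chromosome 14 from 68083863 to 68089095 (GRCm38), and Nefm is on the opposite strand from 68082590 to 68124846. By these positions Nefl lies within the span of Nefm, and 1108 of the 3380 exonic bases of Nefl (32.8%) are also exonic in Nefm. No source gives the strand setting of the authors' counting, and without strand, reads from these bases cannot be assigned to either gene. Of the other measured genes within 1 Mb of Nefl, 6 in number, 1 was apart: Ebf2, a transcription factor gene, with 50 and 81 reads, 0.63 (0.11 to 1.18). Ina also shares 14.1% of its exonic bases with a gene on the opposite strand, Nt5c2, which was at -0.11 (-0.27 to 0.062).

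Some markers of regions outside the dorsal cortex were also higher in the cKO library. Sums in CPM here and below are over all genes of a list with a row in the table, those under 20 reads included. A sum follows the genes with the most reads, so a single gene can make up most of a difference between sums. Among all measured genes, 3.52% were at least 1.5-fold higher and 5.43% at least 1.5-fold lower. Of 19 measured markers of ventral telencephalon and striatum, 10 were at least 1.5-fold higher and 0 lower. Their summed level was 807 CPM in the control library and 1204 in the cKO library. Of 10 measured markers of diencephalon and midbrain, 7 were higher and 0 lower, with sums of 146 and 273 CPM, and the thalamic gene Shox2 had 0 reads in the control library. Of 6 measured hypothalamic markers, 4 were higher and 0 lower, and the 9 with a row summed to 42.4 and 93 CPM. Avp, the vasopressin gene, was among those under 20 reads, with 0 in control and 10 in cKO. None of the 8 markers of motor and peripheral neurons with a row in the table reached 20 reads, with sums of 3.5 and 4.71 CPM. Markers of cortical excitatory neurons had a median of 0.0083, with 5 of 10 above 0. Beyond counting error, 2 of them were higher and 5 lower, beside 24.5% and 7.68% of genes with at least 1000 reads. Their summed reads were at -0.027 (-0.052 to -0.002). The part of these regional differences in the neurofilament ratios was not tested.

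Nes and Vim, the intermediate filaments of radial glia, were not raised with the neuronal filaments. Nes (nestin) had 2575 and 2740 reads, 0.033 (-0.045 to 0.11), a ratio that lies below 0 when scaled by library total. Vim (vimentin) had 6199 and 6017 reads, -0.100 (-0.15 to -0.048). Vim was the sole member lower beyond counting error, although its difference was small. Against Nes, Vim changed by -0.13 (-0.23 to -0.039), and Ina gained on Vim by 0.52 (0.45 to 0.60). Vim is also made by fibroblasts, endothelium and other non-neural cells. Among all measured genes 5.43% were at least 1.5-fold lower. Meningeal and fibroblast markers, with 8 of 9 at least 1.5-fold lower, summed to 256 CPM in the control library and 20.9 in the cKO library. Endothelial and pericyte markers, with 2 of 12 lower and the transporter gene Slco1a4 at 0 in cKO, summed to 320.5 and 280.2 CPM. Choroid plexus markers, with 7 of 7 measured lower and Calml4 at 0 in cKO, summed to 772 and 4.37 CPM, Kl (8 and 7 reads, not measured) included. Of 10 radial glia markers 1, Sox2, was above 0, and the median was -0.14. The part of these cell types in the Vim ratio was not tested.

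The promoters of Ina and Vim are shown because these 2 filament genes lay on opposite sides of level beyond counting error and had entries in the RefSeq promoter table (GRCm38.p6). Each stretch is the 250 bases before the gene's start in RefSeq, on the plus strand, with capitals for matches on either strand to 3 short motifs, none of which overlap here. The TATA box was searched as TATAAA. The CCAAT box was searched by the letters of its name. The GC box was searched as GGGCGG. The first is chr19:47014431-47014680 and the second chr2:13574061-13574310. The deposited table starts Vim further upstream, at 13573927, so the second stretch lies inside Vim as listed there.
Ina: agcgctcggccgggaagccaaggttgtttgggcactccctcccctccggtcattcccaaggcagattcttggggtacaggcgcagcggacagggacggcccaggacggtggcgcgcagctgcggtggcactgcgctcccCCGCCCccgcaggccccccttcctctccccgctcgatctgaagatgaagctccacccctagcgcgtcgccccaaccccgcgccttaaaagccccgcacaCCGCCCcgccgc
Vim: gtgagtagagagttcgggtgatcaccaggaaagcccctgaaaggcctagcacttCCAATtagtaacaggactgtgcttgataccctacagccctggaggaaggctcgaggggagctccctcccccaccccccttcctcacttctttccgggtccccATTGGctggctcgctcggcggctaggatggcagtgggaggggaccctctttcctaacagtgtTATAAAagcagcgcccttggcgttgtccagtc
The Ina stretch holds 2 GC boxes (GGGCGG) and no match to the others, and the Vim stretch holds 1 TATAAA and 2 CCAAT matches and no GC box. Of the members, 24 matched the table by symbol, with 28 promoter stretches. A GC box was in 15 of them (53.6%), against 32.7% of all 32817 stretches of this length. CCAAT was in 11 (39.3%, against 33.8%) and TATAAA in 7 (25%, against 12.4%). These matches are descriptions of sequence and not of binding.

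**Figure D2:**
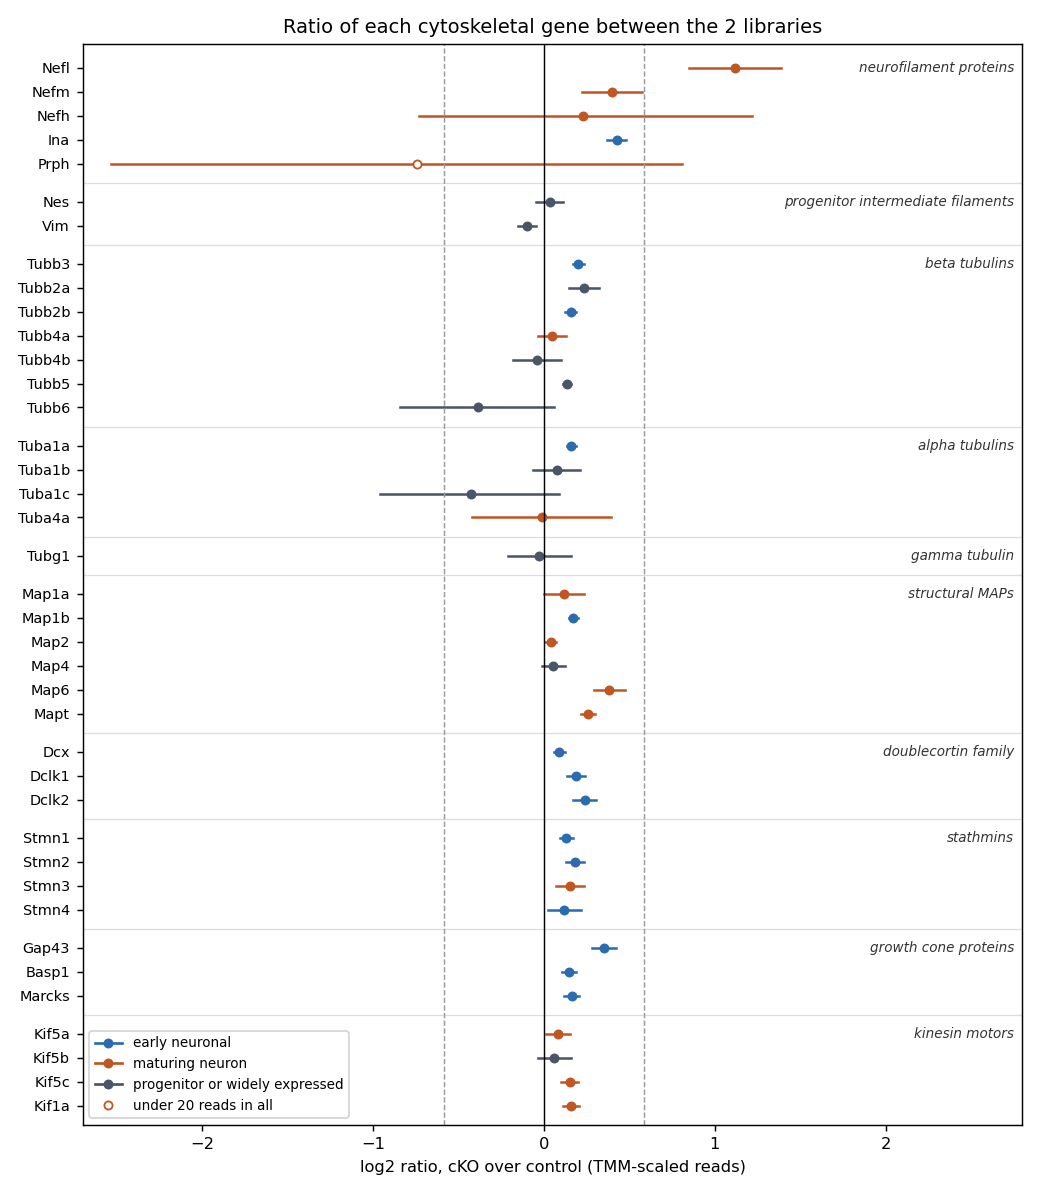
Log2 ratio of cKO over control for each of the 39 members, grouped by role, with exact 95% intervals for counting error as horizontal lines. Colours give the stage list, the open circle is Prph with under 20 reads, and dashed lines mark 1.5-fold. Nefl lies beyond the upper dashed line, and members with few reads (Prph, Nefh, Tuba1c, Tubb6, Tuba4a) have the widest intervals.

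Tubulin genes held the largest share of the members' reads and had nearly the same proportions in both libraries. Beta tubulin isotypes differ mainly in the acidic carboxy-terminal tail that faces the outside of the microtubule. The last 60 coding bases of the isotypes, stop codon included, are shown because they encode that tail. They come from GENCODE M21 transcripts on GRCm38, 5′ to 3′, with capitals for bases that do not match Tubb5 in a global alignment of the 60 bases.
Tubb5: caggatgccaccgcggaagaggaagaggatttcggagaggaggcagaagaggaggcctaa
Tubb3: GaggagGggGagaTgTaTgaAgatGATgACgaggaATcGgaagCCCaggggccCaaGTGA
Tubb2a: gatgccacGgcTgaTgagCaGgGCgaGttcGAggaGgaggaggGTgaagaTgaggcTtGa
Tubb2b: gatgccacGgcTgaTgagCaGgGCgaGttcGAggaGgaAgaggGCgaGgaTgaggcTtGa
Tubb4a: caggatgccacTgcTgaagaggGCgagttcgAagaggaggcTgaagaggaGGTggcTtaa
Tubb4b: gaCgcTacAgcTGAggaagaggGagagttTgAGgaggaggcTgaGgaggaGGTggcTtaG
Their places are chr17:35834982-35835041 (minus strand), chr8:123421623-123421682 (plus), chr13:34074468-34074527 (minus), chr13:34127471-34127530 (minus), chr17:57080690-57080749 (minus) and chr2:25222308-25222367 (minus), each in a coding exon. Tubb3 had 23 bases that did not match, Tubb2b 18 and Tubb4a 10. Over the whole coding sequence, identity to Tubb5 was 81.5% for Tubb3 and 84.6% for Tubb2a, while Tubb2a and Tubb2b were 96.5% identical to each other.

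Tubb5, the widely expressed isotype abundant in developing brain, had 30500 reads in control and 34816 in cKO, the most of any member, and a log2 ratio of 0.13 (0.11 to 0.16). Tubb3, the neuron-specific isotype, had 13705 and 16376 reads, 0.20 (0.17 to 0.23). Tubb2b, an isotype of migrating neurons, had 14566 and 16895 reads, 0.16 (0.13 to 0.19), and its neighbour Tubb2a had 1935 and 2368 reads, 0.23 (0.15 to 0.32). These 4 isotypes were higher beyond counting error by similar amounts. So were 49.2% of genes with at least 5000 reads, a depth that Tubb2a alone of the 4 did not reach. Tubb4a, the isotype of mature brain and myelin-forming cells, had 2334 and 2504 reads, 0.045 (-0.037 to 0.13), and Tubb4b, an isotype of many tissues and of cilia, had 838 and 846 reads, -0.043 (-0.18 to 0.097). Tubb6, a minor isotype, had 97 and 77 reads, -0.39 (-0.84 to 0.057). For these 3 the interval reached across 0.

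The isotype mix was nearly the same in both libraries. Per length, Tubb5 made up 35.9% in the control library and 35.3% in the cKO library of the summed RPKM of the 7 beta tubulins, Tubb3 28.7% and 29.6%, and Tubb2b 24.9% and 24.9%. Tubb3 gained on Tubb5 by 0.066 (0.026 to 0.11), and Tubb4a lost against Tubb3, with a change of -0.16 (-0.24 to -0.067). Both shifts were small but beyond counting error. The ratio of Tubb2b to Tubb5 changed by 0.023 (-0.016 to 0.062) and that of Tubb2a to Tubb2b by 0.077 (-0.016 to 0.17), both within it. Tubulins and the neuronal filaments thus differed: Ina gained on Tubb3 by 0.22 (0.16 to 0.29) and Nefl by 0.92 (0.65 to 1.19).

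Alpha tubulin reads came almost all from Tuba1a, the main alpha isotype of newborn neurons. Tuba1a had 20879 reads in control and 24266 in cKO, 0.16 (0.13 to 0.19). Tuba1b, a widely expressed isotype, had 840 and 919 reads, 0.073 (-0.063 to 0.21), and its relative Tuba1c had 74 and 57 reads, -0.43 (-0.96 to 0.085). Tuba4a, an isotype of mature axons whose gene does not encode the final tyrosine, had 102 and 105 reads, -0.015 (-0.42 to 0.39), a ratio that lies above 0 with DESeq2 size factors. Of these 4, Tuba1a alone was higher beyond counting error. The ratio of Tuba1a to Tuba1c changed by 0.59 (0.075 to 1.12) and that to Tuba1b by 0.087 (-0.052 to 0.23). Over the whole coding sequence, Tuba1b and Tuba1c were 98.3% and 97.1% identical to Tuba1a.

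This likeness limits the tubulin counts. Of all 50-base windows in the coding sequence, 90.4% of those in Tuba1a, 95.6% in Tuba1b and 90.6% in Tuba1c also occur in another annotated gene or pseudogene. For Tubb2a the share was 60.05%, for Tubb2b 65.1% and for Tubb4b 61.1%, whereas Tubb5 and Tubb4a had 0.08% and 0.31%, and Tubb3 had 0%. Stmn1 shared 87.5% of its windows, all with the pseudogene Gm11223, and Tubg1 shared 18.9%, nearly all with Tubg2. The sources do not say how such reads were counted, so the levels of Tuba1a, Tuba1b, Tuba1c, Tubb2a and Tubb2b are uncertain relative to each other. Tuba4a shares 37.3% of its exonic bases with Stk16 on the opposite strand. Tubg1, the gamma tubulin that seeds microtubules at centrosomes, had 477 and 487 reads, -0.027 (-0.21 to 0.16), level with the control.

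**Figure D3:**
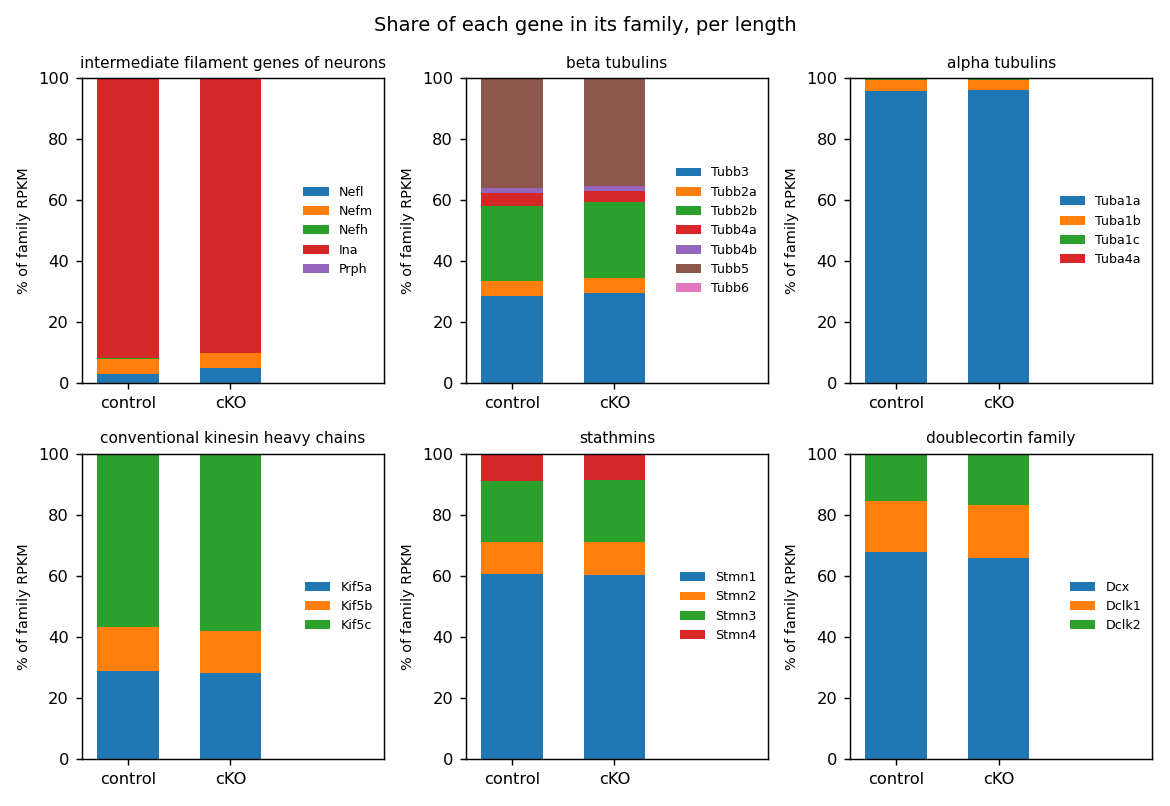
Share of each gene in the summed RPKM of its family, in percent, for the control (left bar) and cKO (right bar) libraries, in 6 families. The bars are nearly equal in every panel, with Nefl at 3.12% and 4.95% of the neuronal intermediate filament genes and Tuba1a at 95.8% and 96.1% of the alpha tubulins.

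Structural microtubule-associated proteins were all above 0, by amounts that differed between genes. All had at least 1000 reads, a depth at which 63.8% of genes were above 0. Map6 (STOP), which makes neuronal microtubules resistant to cold, had 1625 reads in control and 2204 in cKO, 0.38 (0.29 to 0.48). Mapt (tau), the axonal stabiliser, had 9381 and 11656 reads, 0.26 (0.22 to 0.30). Map1b, the main such protein of growing axons, had 25104 and 29413 reads, 0.17 (0.15 to 0.20). These 3 were beyond counting error under each scaling tried. Map1a, the later partner of Map1b, had 1138 and 1284 reads, 0.12 (0.0014 to 0.23), and Map2, the dendritic stabiliser, had 14864 and 15885 reads, 0.039 (0.0070 to 0.072), which is within counting error when scaled by library total. Map4, the form of dividing and non-neuronal cells, had 3481 and 3758 reads, 0.054 (-0.013 to 0.12). Relative to Map2, Mapt gained 0.22 (0.17 to 0.27) and Map6 0.34 (0.25 to 0.44), and Map2 changed by -0.13 (-0.17 to -0.092) against Map1b. Mapt and Map6 thus lay further above level than Map2, beyond counting error.

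All 3 genes of the doublecortin family and all 4 stathmins were higher beyond counting error, by small amounts. So were 24.5% of genes with at least 1000 reads and 49.2% of those with at least 5000. Of these members, all but Stmn3 and Stmn4 had at least 5000 reads. Dcx, the microtubule binder of migrating neurons, had 16841 reads in control and 18638 in cKO, 0.090 (0.060 to 0.12). Its kinase relatives Dclk1 and Dclk2 had 5069 and 5999 reads, 0.19 (0.13 to 0.24), and 3199 and 3927 reads, 0.24 (0.17 to 0.31). Dcx had the lowest ratio of the 14 early neuronal members, and it changed by -0.097 (-0.16 to -0.035) against Dclk1 and by -0.15 (-0.22 to -0.075) against Dclk2. Stathmins bind free tubulin and keep microtubules dynamic. Stmn1, the form of progenitors and young neurons, had 11345 and 12914 reads, 0.13 (0.094 to 0.17). Stmn2 (SCG10), the growth cone form, had 5864 and 6917 reads, 0.18 (0.13 to 0.23). Stmn3, with 2210 and 2554 reads, was at 0.15 (0.069 to 0.23), and Stmn4, with 1630 and 1841 reads, at 0.12 (0.022 to 0.22). Their 4 ratios lay within 0.12 to 0.18, and the ratio of Stmn2 to Stmn1 was level, at 0.051 (-0.011 to 0.11).

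Among the 3 growth cone membrane proteins, which bind phosphoinositides and calmodulin and tie the membrane to actin, Gap43 stood above the other two. Gap43, the marker of growing axons, had 3040 reads in control and 4032 in cKO, 0.35 (0.28 to 0.42). Basp1 had 9082 and 10450 reads, 0.15 (0.11 to 0.19), and Marcks had 7553 and 8784 reads, 0.16 (0.12 to 0.21). Gap43 gained 0.20 (0.13 to 0.28) on Basp1 and 0.19 (0.11 to 0.27) on Marcks, whereas Basp1 and Marcks kept their proportion, -0.015 (-0.076 to 0.045).

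All 4 kinesin heavy chains were above 0, with Kif5b within counting error, and Kif5a as well when scaled by library total. Of genes with at least 1000 reads, a depth all 4 reached, 63.8% were above 0. Kif5a, the neuron-specific conventional kinesin that carries neurofilament cargo, had 3107 and 3425 reads, 0.084 (0.014 to 0.15). Kif5c, the other brain-enriched heavy chain, had 6241 and 7204 reads, 0.15 (0.10 to 0.20), and Kif5b, the form of all tissues, 1744 and 1892 reads, 0.061 (-0.034 to 0.16). Kif1a, the motor of synaptic vesicle precursors, had 6425 and 7460 reads, 0.16 (0.11 to 0.21). Per length Kif5c was the most abundant heavy chain, with 56.9% in the control library and 58.1% in the cKO library of the summed RPKM of the 3. Neither Kif5a nor Kif5c moved against Kif5b beyond counting error, with changes of 0.023 (-0.095 to 0.14) and 0.089 (-0.017 to 0.20).

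**Figure D4:**
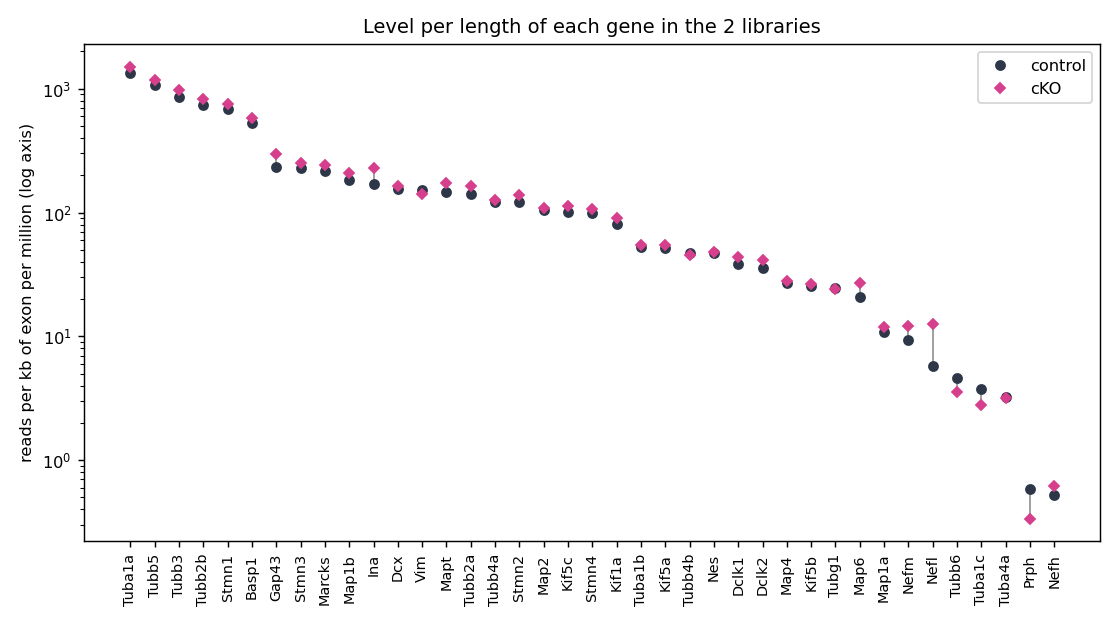
Level of each of the 39 members in RPKM (log axis), ordered by the control library, with circles for control and diamonds for cKO. Levels span from 1350 for Tuba1a to 0.525 for Nefh in the control library, and the widest gap between libraries among measured members is that of Nefl.

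Early neuronal genes were then set against those of maturing neurons. The early list held 14 members (Dcx, Dclk1, Dclk2, Tubb3, Tubb2b, Tuba1a, Stmn1, Stmn2, Stmn4, Map1b, Gap43, Basp1, Marcks and Ina). The maturing list held 14 as well (Nefl, Nefm, Nefh, Prph, Map1a, Map2, Map6, Mapt, Tubb4a, Tuba4a, Stmn3, Kif5a, Kif5c and Kif1a), of which 13 were measured. All 14 early members were above 0 and beyond counting error, with a median of 0.17 and a range from 0.090 (Dcx) to 0.43 (Ina), although Stmn4 is within it when scaled by library total. All 14 had over 1000 reads, a depth at which 63.8% of genes were above 0 and 24.5% higher beyond counting error. All but Stmn4 had over 5000 reads, and at that depth these shares were 74.9% and 49.2%. Of the 13 measured maturing members, whose depths vary more, 12 were above 0 and 10 higher beyond counting error. Their median was 0.15 and their range from -0.015 (Tuba4a) to 1.11 (Nefl). Among all measured genes the shares were 50.5% and 12.5%. All of the 13 but Nefl, Nefh and Tuba4a had at least 1000 reads, the depth with shares of 63.8% and 24.5%. Map2, Mapt, Kif5a, Kif5c and Kif1a had over 5000 reads, the depth with shares of 74.9% and 49.2%. The medians differed by -0.015, maturing minus early. The 11 other members, of progenitors or many cell types, had a median of 0.033, with 6 above 0, of which Tubb2a and Tubb5 were beyond counting error.

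Summed reads gave the same picture. Early members summed to 142596 and 167041 reads, at a log2 ratio of 0.17 (0.16 to 0.18). Maturing members had 48083 and 55318, 0.15 (0.13 to 0.16). The maturing sum changed by -0.026 (-0.046 to -0.0056) against the early sum, a very small difference at this depth. Map2 alone gave 14864 and 15885 of the maturing reads, at 0.039 (0.0070 to 0.072), and weighs heavily on that sum. The ratio of Map2 was below that of the maturing sum, so leaving out only Map2 would raise the maturing sum's ratio. That change was not computed, and its negative sign may not hold without Map2. Stricter lists of 7 maturing and 10 early genes gave a change of -0.028 (-0.075 to 0.019). They leave out Map2 but also Mapt, Map6, Kif5c and Kif1a, and so do not show the part of Map2 alone. Ratios of maturing genes were the more spread out. Nefl, Nefm, Map6 and Mapt lay above at least 12 of the 14 early members, and Map2, Tubb4a, Tuba4a and Kif5a below all 14. Some of these places are within counting error. Tuba4a, with 102 and 105 reads, had an interval of -0.42 to 0.39, which takes in the early median of 0.17. Kif5a, at 0.084 (0.014 to 0.15), was barely below Dcx, at 0.090 (0.060 to 0.12). Some maturing genes had few reads, and the part of counting error in the spread was not tested.

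**Figure D5:**
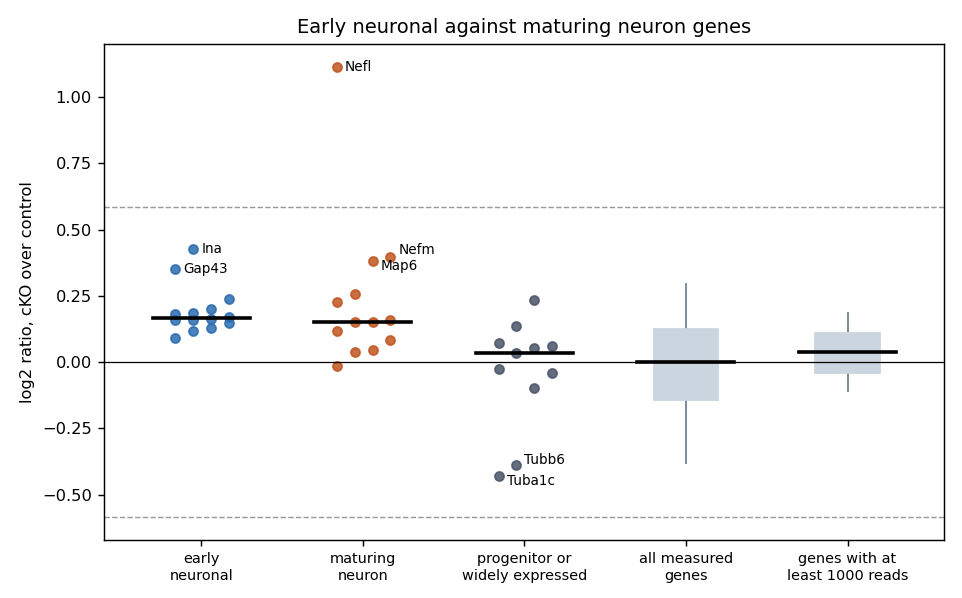
Log2 ratio of cKO over control for the measured early neuronal (14), maturing neuron (13) and progenitor or widely expressed (11) members, beside all measured genes and genes with at least 1000 reads. Points are genes, thick lines medians, boxes the range between quartiles and thin lines the range between the outer deciles of genes. The early and maturing medians lie at 0.17 and 0.15, and Nefl stands apart from the other maturing genes.

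Neuronal genes outside the cytoskeleton are given beside the 63.8% of genes above 0 among those with at least 1000 reads. Several genes below, the microglial markers among them, had fewer reads, and among all measured genes 50.5% were above 0. Of 12 early neuron genes, 10 were above 0 and the median was 0.13. Nnat, an imprinted neuronal membrane protein gene, was at 0.34 (0.31 to 0.37) and the adhesion gene Ncam1 at 0.31 (0.25 to 0.37), whereas Nhlh1, a transcription factor gene of newborn neurons, was at -0.55 (-0.79 to -0.33). Of 19 genes of maturing neurons, 13 were above 0, a share near that of genes with at least 1000 reads, and the median was 0.10. Syt1, the calcium sensor of synaptic vesicles, was at 0.32 (0.22 to 0.41) and the kinase gene Camk2a at 0.29 (0.12 to 0.46). These are among the highest of the 19, of which 6 were below 0. Beyond counting error, 8 of the 19 were higher and 1 lower, beside 24.5% and 7.68% of genes with at least 1000 reads. Intermediate progenitor markers had a median of -0.089, with 2 of 6 above 0, and cycling cell markers 0.082, with 6 of 8. None of the genes on these lists was at least 1.5-fold apart. Cajal-Retzius markers had a median of 0.27, with 4 of 6 above 0 and Ebf2 the 1 gene apart. Microglial markers had a median of -0.26, with 2 of 6 above 0 and 2 at least 1.5-fold lower. Among all measured genes 3.52% were at least 1.5-fold higher and 5.43% at least 1.5-fold lower.

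Other genes of the microtubule and filament pathway were closer to level than the members. Of 115 genes on 8 lists, 111 had a row in the table and 106 were measured. Of these, 77 were above 0, 2 were at least 1.5-fold higher and 0 lower, and the median was 0.074. Among all measured genes 50.5% were above 0, 3.52% at least 1.5-fold higher and 5.43% at least 1.5-fold lower. The pair that was apart was Cdk5r2 (p39), a neuronal activator of the kinase Cdk5, with 274 and 483 reads, 0.76 (0.54 to 0.98), and Ttll11, a tubulin polyglutamylase gene, with 38 and 63 reads, 0.67 (0.070 to 1.29). Beyond counting error, 40 of the 106 were higher and 3 lower, beside 12.5% and 9.3% of all measured genes. For genes with at least 1000 reads these shares were 24.5% and 7.68%. The list of other growth cone and regulator genes had the highest median of the 8, 0.14, with 14 of 16 above 0, among them Gprin1 at 0.25 (0.16 to 0.34) and Dpysl4 at 0.22 (0.093 to 0.35).

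Binding proteins, modifying enzymes and motors outside the members showed small ratios. Further microtubule-associated and plus-end proteins had a median of 0.086, with 20 of 23 above 0. Map1lc3a, the autophagy protein LC3A that was first found bound to Map1 proteins, was at 0.49 (0.33 to 0.65), and Tppp, a tubulin polymerising protein gene, at 0.45 (0.14 to 0.76). Axonal kinesins and light chains had a median of 0.082, with Kif26b at 0.27 (0.11 to 0.43). Dynein and dynactin genes, the machinery of transport towards the cell body, had a median of 0.037, with Dynll2, a dynein light chain gene, at 0.28 (0.19 to 0.38). Tubulin folding and modification genes were at 0.054, with the folding cofactor gene Tbcb at 0.28 (0.12 to 0.44) and its counterpart Tbcc at -0.36 (-0.70 to -0.027). Severing and depolymerising factors were at 0.055. Lmna, the nuclear lamin of stiff and mesenchymal tissues, was at -0.53 (-1.005 to -0.061), and Lmnb1, the lamin of neural progenitors, at 0.11 (0.045 to 0.18). Tubg2, the brain-enriched gamma tubulin, was at 0.47 (0.11 to 0.84), and the 3 other tubulins measured, Tubg2 included, had a median of 0.13. The 4 other intermediate filament genes measured had a median of 0.013.

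In the authors' deposited table, 21 of the 39 members had an adjusted p-value below 0.05 with the higher value in the knockout, and 1, Vim, with the lower. Over all genes of the authors' deposited table the shares were 3.36% and 4.07%. These shares cover genes of every depth, whereas 32 members had at least 1000 reads, and shares for genes of like depth were not computed. Nefl was the single member marked significant in the authors' deposited table, where 1.61% of genes carry that mark. No source names the test behind these values, and the table holds no replicate columns.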

How the data were processed

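RNA was sequenced from 1 control and 1 cKO library. Per the labels' protocols, RNA was taken with Trizol and libraries were made with a TruSeq kit. Tools in the submitters' processing notes are HTSeq 0.6.0, TopHat2 2.0.12 and Bowtie2 2.2.3, and the build there is mm9. Positions in the deposited table were identical to GENCODE M21 gene models on GRCm38 for 79.2% of 19616 genes and overlapped for 99.8%, so coordinates are given as GRCm38. The sources used here do not give the annotation release, the strand setting or what was done with reads of multiple origins.

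The authors deposited raw counts per gene and CPM values, in which 0 was entered as 0.5 read. The deposited fold column is a ratio of control to knockout CPM, and the deposited log2 column its logarithm. No source names the test behind the deposited p-value columns. Of 19720 genes listed, 19616 matched a symbol.

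Counts were scaled by TMM (edgeR 4.0.16, R 4.3.3), and log2 ratios took a prior of 0.5 read. Exon lengths are the union of GENCODE M21 exons. Floors and intervals cover counting error only. Pair changes are conditional odds ratios with exact intervals. Intervals used scipy 1.17.1, sequences Biopython 1.88 and figures matplotlib 3.10.9, with pandas 2.3.3 and numpy 2.4.6 under Python 3.11.15. DESeq2 1.42.0 gave alternative size factors.

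The members, the stage, pathway and marker lists and the pairs were chosen with earlier results of these data known. All members are named, and from each other list up to 3 genes furthest from 0 that reached 50 reads in the library where they are higher could be named. Genes named outside that rule, after their values were seen, are Nt5c2 and Stk16 as neighbours, Kl, and list genes at 0 reads. Ebf2 is named as a neighbour of Nefl and also falls within the rule. Tuba8, Tuba3a, Tuba3b, Tubal3 and some markers were not analysed here. Some items withheld for evaluation are not reported here.

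The scripts were tested on simulated data.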

Additional observations from a re-analysis of the deposited data

How the results depend on the processing

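No paired analysis was possible because each genotype has 1 library, and for the same reason no replicate could be left out. Nefl was the single member at least 1.5-fold higher under each scaling, prior and read minimum tried and at 2-fold. At a limit of 25% in place of 1.5-fold, 5 members were higher and 2 lower, beside 8.67% and 12.2% of all measured genes. With no read minimum 1 member, Prph with 16 reads, was at least 1.5-fold lower. Without Nefl, or without the members whose exons overlap another gene most (Nefl, Nefm, Ina, Tuba1a, Tuba1b, Tuba4a), 0 were apart. These 2 sets, and centring on the median of genes with at least 1000 reads, were chosen after seeing the data. The median of early neuronal members was 0.132 when scaled by library total and 0.129 when centred on well-counted genes. The difference of maturing minus early medians stayed between -0.043 and -0.014 over all alternatives. Against scaling by library total, TMM raises every log2 ratio by 0.035 and DESeq2 size factors raise it by 0.058. Of 38 measured members, 31 were above 0 by library total and 33 with DESeq2 size factors, with Nes and Tuba4a the genes that changed sign. Members higher beyond counting error numbered 22 to 27 over the settings run for that count, which leave out the one without near-identical tubulins. By library total, Map1a, Map2, Stmn4 and Kif5a were within counting error. Map2 was then at 0.0045. The 5 members with the fewest reads (Prph, Nefh, Tuba1c, Tubb6 and Tuba4a) are limited by depth.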
